A study of Mus musculus with 6 samples.

Results

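Ferroptosis is a form of cell death driven by iron-dependent peroxidation of polyunsaturated phospholipids, and the 8 genes described here encode enzymes on both sides of that reaction. They were taken by name (Gpx4, Gpx1, Aifm2, Coq2, Dhodh, Gch1, Acsl4 and Lpcat3), and all 8 were found among the 14003 genes of the deposited table. The samples are labelled as wild-type MC3T3-E1, a mouse preosteoblast line. The labels also name a plant RNA extraction kit and a bacterial rRNA depletion kit, and several osteoblast markers were near 0 while 3 keratin genes were abundant (values below), so the identity of the cells rests on the label. The tested cells received 200 µM sulfasalazine and are labelled 24 h (3 libraries), and the control cells, also labelled 24 h, were left untreated (3 libraries). No vehicle is named in the labels, nor whether replicates came from independent cultures. The p-values therefore cover the spread between these libraries, which may be technical.

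As background, GPX4 is a selenoprotein that uses glutathione to reduce lipid hydroperoxides inside membranes, and GPX1 does the same for soluble peroxides. Outside the glutathione route, AIFM2 (also called FSP1) and the mitochondrial enzyme DHODH reduce coenzyme Q, which then traps lipid radicals, and GCH1 starts the synthesis of tetrahydrobiopterin, another radical trap. ACSL4 and LPCAT3 work upstream: ACSL4 activates arachidonic and adrenic acid, and LPCAT3 places polyunsaturated chains into phospholipids. Sulfasalazine is known to inhibit the cystine transporter that supplies glutathione synthesis, which is why the drug is used in ferroptosis research.

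The libraries held 15980944 to 21579133 reads on genes, as recovered from the expression values. Control replicate 3 had the fewest reads and stood apart from the other controls, with a score of 42.6 on the first principal component (88.6% of the variance), against -54.1 to -59.2 for sulfasalazine libraries and 63.2 and 65.3 for control replicates 2 and 1. Values without it are given below for Gpx4, Coq2, Dhodh, Acsl4, Sephs2, Pdss1 and Tfrc. Of 20 osteoblast markers listed, 11 were in the table. Of those 11, 7 had a mean below 1 FPKM (fragments scaled by gene length and library size), among them Col1a1, Bglap and Sp7. Runx2, Spp1, Atf4 and Sparc were at 10 FPKM or more. Of 12 epithelial markers listed, 10 were in the table, 6 of them below 1 FPKM and 3, all keratins, at 10 or more. The keratins did not move together: Krt8 had 902 ± 58.1 FPKM with sulfasalazine and 287 ± 33.4 FPKM in controls, Krt18 913 ± 61.4 and 708 ± 61.1 FPKM, and Krt19, which was called lower, 154 ± 42.9 and 349.5 ± 43.2 FPKM. Cdh1 was not called (limma adjusted p = 0.492). The epithelial markers summed to 1885 to 2093 FPKM in sulfasalazine libraries and to 1294 to 1453 FPKM in control libraries, and the osteoblast markers to 1197 to 1653 FPKM in sulfasalazine libraries and 2983 to 3519 FPKM in control libraries. Most of the osteoblast sum came from Spp1, at 947 ± 104 FPKM with sulfasalazine and 1868 ± 309 FPKM in controls, and Atf4, a broadly expressed stress factor gene, at 392 ± 131 and 1394 ± 93.3 FPKM. Runx2 had 18.1 ± 1.57 FPKM with sulfasalazine and 23.5 ± 2.2002 FPKM in controls, and Sparc, at 23.1 ± 7.44 and 22.4 ± 18.4 FPKM, was not called (limma adjusted p = 0.624). Of 10 macrophage and osteoclast markers listed, 5 were in the table, 4 of them below 1 FPKM. These 5 summed to 18.2 to 28.8 FPKM with sulfasalazine and 32.0 to 56.3 FPKM in controls. Of 8 adipocyte markers listed, 5 were in the table, 3 of them below 1 FPKM. These 5 summed to 10.8 to 11.1 FPKM with sulfasalazine and 10.1 to 11.9 FPKM in controls. The part of these markers in the results below was not tested. In bulk RNA, fewer cells of a type and less RNA per cell cannot be told apart.

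The most changed members of the group were Lpcat3 and Aifm2, and the RefSeq promoter windows of both (GRCm38.p6, plus strand, 250 bases before to 50 after the annotated start) are shown here to set the largest responses beside the DNA at their starts. Capitals mark CG pairs. The Lpcat3 window is chr6:124662854-124663153, and the Aifm2 window is chr10:61720399-61720698, whose start lies 5386 bases into the gene as the deposited table places it.
Lpcat3: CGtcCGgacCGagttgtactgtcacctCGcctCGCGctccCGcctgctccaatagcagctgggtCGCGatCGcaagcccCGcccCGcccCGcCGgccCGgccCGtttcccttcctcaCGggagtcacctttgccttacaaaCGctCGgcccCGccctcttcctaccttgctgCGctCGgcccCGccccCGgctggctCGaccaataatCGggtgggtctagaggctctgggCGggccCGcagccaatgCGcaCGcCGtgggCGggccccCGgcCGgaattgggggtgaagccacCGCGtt
Aifm2: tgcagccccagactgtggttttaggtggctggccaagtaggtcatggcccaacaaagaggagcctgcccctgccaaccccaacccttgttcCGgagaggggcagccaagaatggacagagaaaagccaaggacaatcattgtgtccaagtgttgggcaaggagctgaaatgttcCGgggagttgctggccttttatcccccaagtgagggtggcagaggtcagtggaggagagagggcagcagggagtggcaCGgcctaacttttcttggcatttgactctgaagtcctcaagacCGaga
The windows differ in composition. Lpcat3 has 36 CG pairs and 71.0% G and C, and 93.8% of all 32851 windows have fewer pairs. Aifm2 has 4 CG pairs and 56.0% G and C, and 31.4% of all windows have fewer, where the median window has 7. Windows were given for 7 of the 8 genes, 10 windows in all, since Gpx4 has 4. They were searched on both strands for TGACNNNGC (antioxidant response element core, found in 12.4% of all windows), TGATGNAA (ATF4 and C/EBP composite element, 3.97%) and TCACNCCAC (sterol regulatory element, 1.24%). None of the 10 windows held any of these 3 strings. Dhodh had no window. Bases outside the windows were not searched, among them those at the Aifm2 start that the deposited table gives.

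Across the 8 genes, 5 were higher and 1 was lower with sulfasalazine (limma on log2(FPKM + 1), Benjamini-Hochberg adjusted p under 0.05 over 10338 genes tested, all members included). Of all tested genes, 37.2% were called higher, 29.3% lower and 66.5% in either direction, so with 8 genes these counts carry little on their own. The balance of the background depended on scaling, with 3846 genes higher and 3032 lower as deposited, 3437 higher and 3530 lower after median-of-ratios scaling, and 3507 higher and 3549 lower after quantile normalization. The median log2 fold change was 0.69 over the 8 genes and 0.08 over all tested genes. The sulfasalazine and control values did not overlap for 5 of the 8 (4 higher, 1 lower), and the same held for 71.4% of tested genes (40.3% higher, 31.1% lower). With limma voom on the recovered reads, a test added after the data were seen, 5 of the 8 were called higher, against 37.6% of tested genes. For a single gene, an exact permutation test of 3 against 3 libraries cannot give a p below 0.1.

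**Figure D1:**
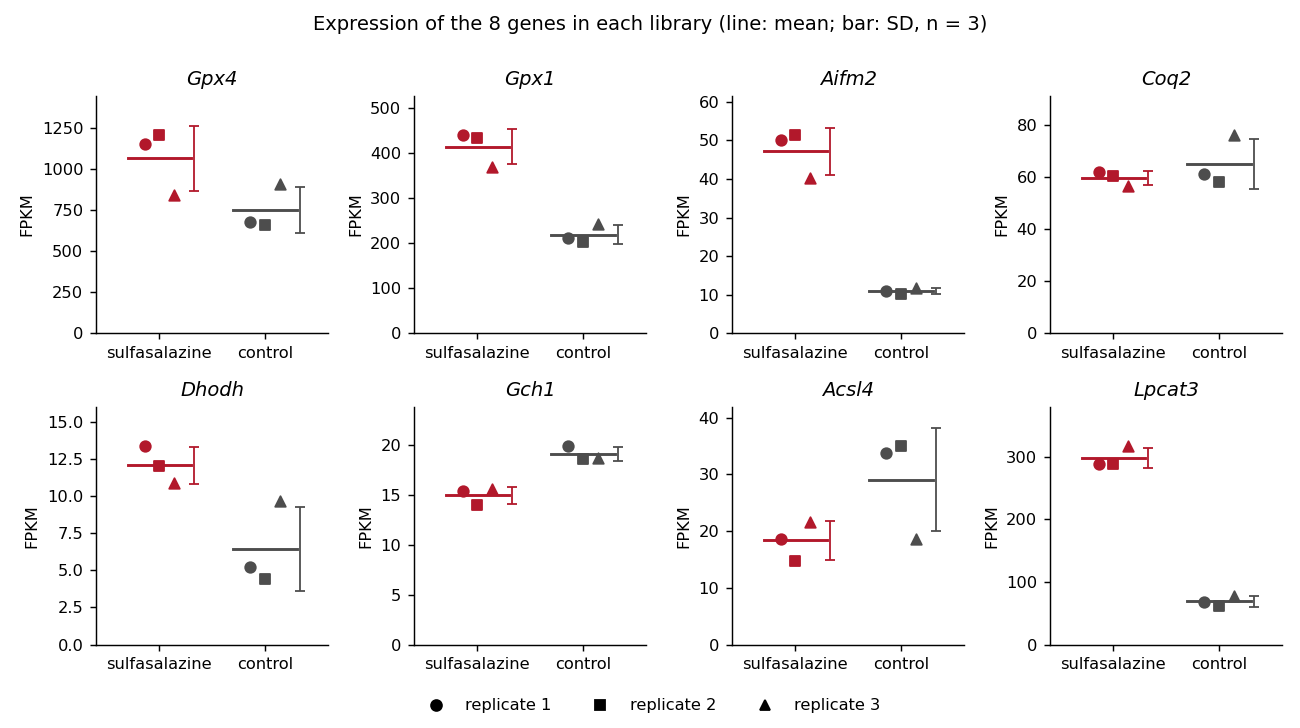
FPKM of each gene (y axis, from 0) in the 3 sulfasalazine and 3 control libraries, with 1 point per library shaped by replicate number, a line at the mean and a bar for the SD. Lpcat3 and Aifm2 are separated by a wide gap, while for Gpx4 and Acsl4 the triangle of control replicate 3 lies among the sulfasalazine points.

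The glutathione peroxidases were the most abundant members in both groups. Gpx4 (ENSMUSG00000075706, chromosome 10, 80047166 to 80056439, GRCm38) had 1150, 1204 and 838 FPKM in sulfasalazine replicates 1, 2 and 3, against 679, 656 and 910 FPKM in control replicates 1, 2 and 3. The groups overlapped: sulfasalazine replicate 3 was below control replicate 3. The mean was 1064 ± 197 FPKM with sulfasalazine and 748 ± 141 FPKM in controls (SD, n = 3 each), a log2 fold change of 0.51 (SE 0.19, limma adjusted p = 0.0455). Scaling by median of ratios ended this call (log2 fold change 0.38, adjusted p = 0.156), as did testing with no filter (adjusted p = 0.0745) and dropping any 1 of replicates 1 and 2 of either group (adjusted p = 0.113 to 0.157). Without control replicate 3 the log2 fold change was 0.65 (limma adjusted p = 0.0099). Without replicate 3 of both groups, an alternative added after the data were seen, the log2 fold change was 0.82 (limma adjusted p = 0.00043), and over all alternatives the adjusted p ran from 0.00043 to 0.157. Gpx4 gives rise to cytosolic, mitochondrial and nuclear forms from different starts, which a single value per gene cannot separate. Of its 50-base words 34.7% also occur in transcripts of other genes, mainly the pseudogene Gpx4-ps2, so part of its reads cannot be assigned with certainty.

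Gpx1 (ENSMUSG00000063856, chromosome 9, 108338903 to 108340343) gave the clearer rise of the pair. It had 440, 434 and 370 FPKM in the sulfasalazine libraries, against 212, 202 and 242 FPKM in the control libraries. Every sulfasalazine value lay above every control value. The means were 414 ± 38.6 and 219 ± 20.8 FPKM (SD, n = 3 each), a log2 fold change of 0.92 (SE 0.12, limma adjusted p = 0.00028), and the call held under each of the 15 alternatives. Within a library, the ratio of Gpx4 to Gpx1 FPKM, which does not depend on library scaling, was 2.62, 2.78 and 2.27 with sulfasalazine and 3.20, 3.25 and 3.76 in controls. Those ratios did not overlap either (exact two-sided permutation p = 0.1, the smallest the design allows).

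Aifm2 and Coq2 stand for the coenzyme Q route at membranes. Aifm2 (ENSMUSG00000020085, chromosome 10, 61715263 to 61739260), the oxidoreductase that regenerates reduced coenzyme Q, had 50.02, 51.4 and 40.2 FPKM in sulfasalazine libraries, against 10.98, 10.3 and 11.7 FPKM in control libraries. The 3 control values lay close together and far below the lowest sulfasalazine value. The mean level was 4.30 times the control mean, with a log2 fold change of 2.00 (SE 0.14, limma adjusted p = 1.4e-05), which ranked 500 among the 10338 tested genes in order of rise. In exon sequence, 5.7% of Aifm2 lies within the gene on the opposite strand that the table calls Macroh2a2. That neighbour stood at 7.08 ± 0.166 FPKM with sulfasalazine and 6.07 ± 1.26 FPKM in controls (SD, n = 3 each) and was not called (limma adjusted p = 0.305). It was named after its value was seen.

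Coq2 (ENSMUSG00000029319, chromosome 5, 100654723 to 100675140), which joins the isoprenoid tail to the ring of coenzyme Q, gave no call. It had 61.8, 60.4 and 56.6 FPKM with sulfasalazine and 61.1, 58.2 and 76.1 FPKM in controls. Control replicate 3 was the highest library and the others spanned a narrow range. The log2 fold change was -0.12, with a 95% confidence interval of -0.41 to 0.17 (limma adjusted p = 0.43). It was -0.0022 without control replicate 3 (adjusted p = 0.983). Leaving out both libraries numbered 3 gave 0.034 (adjusted p = 0.718, range over the alternatives 0.154 to 0.983). The ratio of Aifm2 to Coq2 FPKM was 0.809, 0.850 and 0.710 in sulfasalazine libraries, against 0.180, 0.177 and 0.154 in control libraries. The oxidoreductase transcript was nearer the level of the synthesis transcript in treated cells, and the ratios did not overlap (exact two-sided permutation p = 0.1). The ratio of Gpx4 to Aifm2 was 23.0, 23.5 and 20.9 with sulfasalazine and 61.8, 63.9 and 77.9 in controls, so the balance between these defence transcripts differed although both genes were called higher.

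Dhodh (ENSMUSG00000031730, chromosome 8, 109591343 to 109608673) encodes the inner-membrane enzyme of mitochondria that oxidises dihydroorotate and passes the electrons to coenzyme Q. It had 13.4, 12.03 and 10.9 FPKM in sulfasalazine libraries, against 5.22, 4.40 and 9.71 FPKM in control libraries. The groups did not overlap, but control replicate 3 came close to the lowest sulfasalazine library. Its counts were the lowest of the 8 genes, with 279 to 385 recovered reads with sulfasalazine and 122 to 207 in controls. The log2 fold change was 0.88 (SE 0.26, limma adjusted p = 0.0161), and 1.17 without control replicate 3. It no longer passed without sulfasalazine replicate 1, without control replicate 1 or without control replicate 2 (adjusted p = 0.0553 to 0.0598, range over all alternatives 0.00015 to 0.0598).

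Gch1 (ENSMUSG00000037580, chromosome 14, 47153895 to 47189413), the rate-limiting enzyme of tetrahydrobiopterin synthesis, was the member called lower. It had 15.4, 14.0 and 15.6 FPKM in sulfasalazine libraries and 19.9, 18.7 and 18.7 FPKM in control libraries. Every sulfasalazine value was below every control value, and the spread within each group was small. The log2 fold change was -0.33 (SE 0.12, limma adjusted p = 0.0456), a call close to the threshold. Dropping any library other than control replicate 3 ended it (limma adjusted p = 0.0701 to 0.18, range over all alternatives 0.0076 to 0.18).

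The lipid enzymes Acsl4 and Lpcat3, which act in sequence, did not follow each other. Acsl4 (ENSMUSG00000031278, X chromosome, 142317993 to 142390535) had 18.7, 14.8 and 21.6 FPKM with sulfasalazine and 33.7, 34.9 and 18.6 FPKM in controls. Control replicates 1 and 2 were above all treated libraries, while control replicate 3 lay among them. Its log2 fold change of -0.60 (95% confidence interval -1.18 to -0.02) did not pass (limma adjusted p = 0.0649). It passed as lower without control replicate 3 (-0.88, adjusted p = 0.0013), without replicate 3 of both groups (-1.002, adjusted p = 0.00031), after median-of-ratios scaling (adjusted p = 0.0249) and after quantile normalization (adjusted p = 0.0231). Over all alternatives the adjusted p ran from 0.00031 to 0.209.

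Lpcat3 (ENSMUSG00000004270, chromosome 6, 124663027 to 124704418) had 289, 289 and 317 FPKM in sulfasalazine libraries, against 67.3, 61.7 and 78.2 FPKM in control libraries. The treated values were several times the control values in every library, including control replicate 3. The ratio of the means was 4.32 and the log2 fold change 2.10 (SE 0.12, limma adjusted p = 7e-06), rank 416 among the 10338 tested genes in order of rise. Emg1 on the opposite strand covers 10.2% of the exonic bases of Lpcat3. Emg1, named after its value was seen, had 41.3 ± 5.09 FPKM with sulfasalazine and 47.5 ± 4.61 FPKM in controls (SD, n = 3 each) and was not called (limma adjusted p = 0.213). The ratio of Lpcat3 to Acsl4 was 15.5, 19.5 and 14.7 in sulfasalazine libraries and 2.00, 1.77 and 4.21 in control libraries, with no overlap (exact two-sided permutation p = 0.1). The ratio of Gpx4 to Acsl4, a defence gene over a substrate gene, was 61.6, 81.4 and 38.9 with sulfasalazine and 20.1, 18.8 and 49.0 in controls. Here the groups overlapped through replicate 3 of each (exact two-sided permutation p = 0.2).

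**Figure D2:**
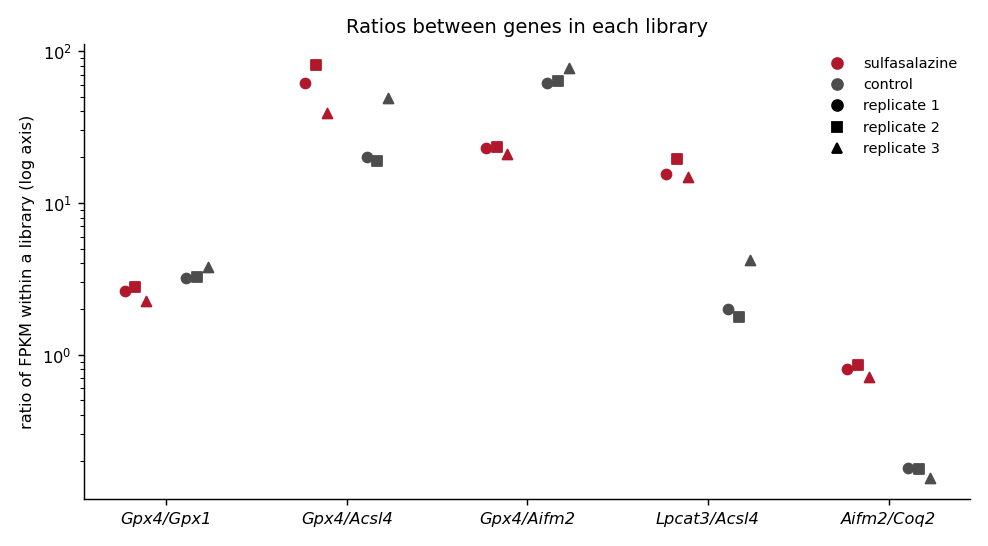
Ratio of the FPKM of named gene pairs within each library (y axis, log scale), sulfasalazine left of control, points shaped by replicate number. Gpx4/Acsl4 is the pair with overlapping groups, through control replicate 3 at 49.0 and sulfasalazine replicate 3 at 38.9.

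**Figure D3:**
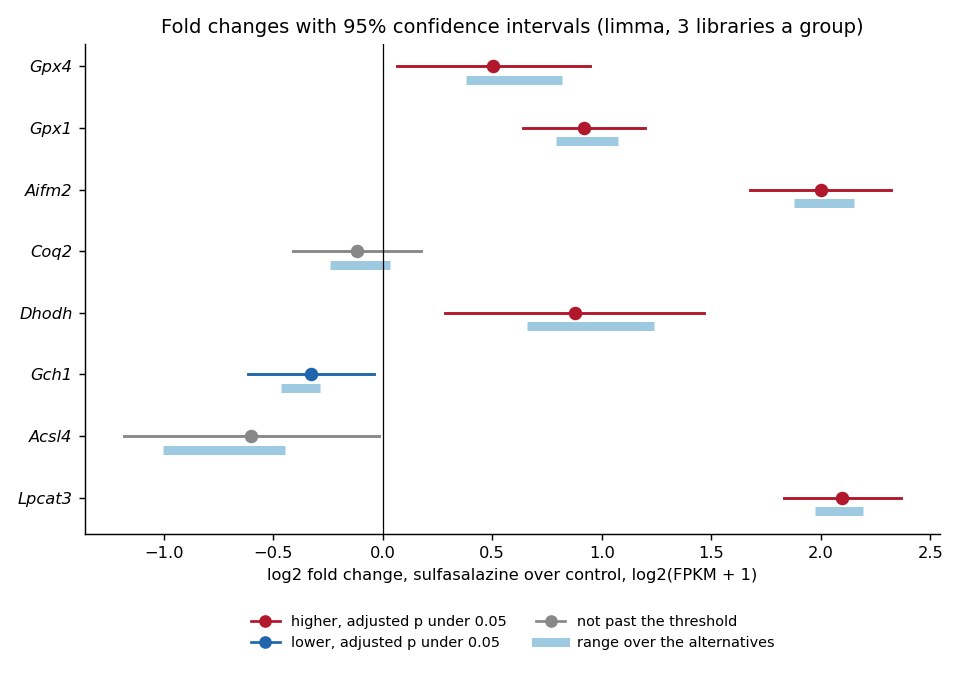
Log2 fold change of each gene (x axis, sulfasalazine over control, on the log2(FPKM + 1) scale) with its unadjusted 95% confidence interval from limma, coloured by call, and a pale bar for the range over the alternatives. Lpcat3 at 2.10 and Aifm2 at 2.00 lie apart from the others, and the pale bar of Coq2 crosses 0.

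The authors' deposited table selected Aifm2 (log2 fold change 2.01) and Lpcat3 (2.01) as up, where 18.8% of its genes were so selected, and selected no other member. In the authors' deposited table Gpx4 did not reach an adjusted p of 0.05 (0.0745) and Acsl4 did (0.0026, log2 fold change -0.77). Gpx1 (1.1e-05), Dhodh (0.0208) and Gch1 (0.0246) also passed 0.05 by the authors' adjusted p. Members that passed were left unselected, so adjusted p alone did not decide the authors' selection. The limma fit above called Gpx4 and did not call Acsl4, with the same directions of change.

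Set in order of level, the 8 genes ran Gpx4, Gpx1, Lpcat3, Coq2, Aifm2, Acsl4, Gch1 and Dhodh with sulfasalazine, and Gpx4, Gpx1, Lpcat3, Coq2, Acsl4, Gch1, Aifm2 and Dhodh in controls. Aifm2 stood above Acsl4 and Gch1 with sulfasalazine and below both in controls, and the other genes kept their order. FPKM is scaled by gene length, but the length used for each gene is not stated here. Levels of different genes, their order, overlaps and shares therefore hold only on the deposited FPKM scale. With sulfasalazine, Acsl4 and Gch1 were the neighbours whose library values overlapped. In controls, the overlapping neighbours were Lpcat3 with Coq2 and Acsl4 with Gch1. Gpx4 made up 55.2% of the summed mean FPKM of the 8 genes with sulfasalazine and 64.1% in controls, and Lpcat3 15.5% and 5.92%. Among all 14003 genes, Gpx4 ranked 73rd by mean with sulfasalazine and 123rd in controls.

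The genes with the most similar profiles were found by the root mean square difference between centred log2(FPKM + 1) values over the 6 libraries, among 8895 genes with a group mean of at least 5 FPKM. For Lpcat3 they were Dag1 (0.0345), Dnajc22 (0.0467) and Nit2 (0.0475). For Aifm2 they were Msto1 (0.0544), Hlcs (0.0637) and Aldh2 (0.0737). The nearest gene was Mapk13 for Gpx4 (0.0791), Prrg2 for Gpx1 (0.0339), Sdc3 for Dhodh (0.0389), Lactb2 for Gch1 (0.014), Cntrl for Acsl4 (0.048) and Cdipt for Coq2 (0.0141). No member was among the 3 nearest genes of another.

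Other genes of the same pathways came from 6 lists chosen by function, with 100 of 111 listed genes in the table and 93 tested. Of these, 39 were higher and 26 lower, 41.9% and 28.0%, against 37.2% and 29.3% of all tested genes, with a median log2 fold change of 0.22 against 0.08. The shares are thus near the background, and the lists are described by their members. Named genes outside the rule given under processing are marked as chosen after their values were seen.

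Other glutathione peroxidases and selenoproteins, which like GPX4 and GPX1 mostly carry selenocysteine, split evenly: 6 of 16 tested were higher and 6 lower. Gpx8, chosen after its value was seen, was the only glutathione peroxidase of this list that was tested. It had 40.3 ± 3.35 FPKM with sulfasalazine and 45.3 ± 14.0 FPKM in controls and was not called (limma adjusted p = 0.615). Txnrd1, the cytosolic thioredoxin reductase, rose to 367 ± 43.4 FPKM with sulfasalazine, against 114 ± 25.6 FPKM in controls (log2 fold change 1.70, limma adjusted p = 9.6e-05). Msrb1, a methionine sulfoxide reductase, rose to 69.0 ± 1.31 FPKM, against 13.3 ± 0.215 FPKM in controls. The endoplasmic reticulum proteins encoded by Selenom and Selenon also had higher transcripts, Selenom at 42.4 ± 2.74 FPKM with sulfasalazine and 3.51 ± 1.71 FPKM in controls, and Selenon at 143 ± 1.58 and 42.5 ± 13.1 FPKM. Selenow, a small muscle-enriched selenoprotein chosen after its value was seen, fell to 172 ± 2.94 FPKM with sulfasalazine, against 381 ± 90.1 FPKM in controls. Sephs2, which makes the selenium donor for selenocysteine, had 22.3 ± 0.501 FPKM with sulfasalazine and 18.4 ± 3.27 FPKM in controls and did not pass (limma adjusted p = 0.142), with 36.4% of its exonic bases in an opposite-strand entry. It passed without control replicate 3 (adjusted p = 0.02, range over the alternatives 0.02 to 0.398).

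Genes of selenocysteine supply and insertion gave 4 rises and 3 falls among 10 tested. Trit1, which modifies the anticodon loop of tRNAs including that for selenocysteine, fell to 5.09, 4.68 and 5.85 FPKM with sulfasalazine, against 36.0, 31.5 and 33.8 FPKM in controls (log2 fold change -2.49, SE 0.14, limma adjusted p = 7.6e-06). Lrp8, a receptor for the selenium carrier selenoprotein P, rose to 17.6 ± 3.40 FPKM, against 4.32 ± 0.921 FPKM in controls. Scly, which frees selenium from selenocysteine, fell to 39.7 ± 3.69 FPKM, against 87.6 ± 25.5 FPKM in controls. Trnau1ap, a selenocysteine tRNA-associated protein gene, rose to 67.2 ± 2.56 FPKM, against 39.0 ± 10.5 FPKM in controls.

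Coenzyme Q genes moved apart from each other around the uncalled Coq2, with 6 of 14 tested higher and 4 lower. Coq8a, an atypical kinase of the coenzyme Q complex, had 10.4, 8.54 and 6.29 FPKM with sulfasalazine and was listed at 0.105, 0 and 0.0641 FPKM in controls (limma adjusted p = 8.9e-06). With 2, 0 and 1 recovered reads in the controls its log2 fold change depended on the pseudocount, at 3.13 with a pseudocount of 1, 5.80 with 0.1 and 6.96 in limma voom on recovered reads. Its relative Coq8b rose to 26.7 ± 2.40 FPKM, against 6.61 ± 1.70 FPKM in controls, and 10.9% of its exonic bases lie in an opposite-strand entry. Pdss1, which builds the isoprenoid tail used by COQ2, fell to 1.12, 1.64 and 3.44 FPKM with sulfasalazine, against 13.4, 12.4 and 7.57 FPKM in controls. Replicate 3 of each group lay nearest to the other group, and the log2 fold change was -2.02, and -2.26 without control replicate 3. Coq10b, a coenzyme Q binding protein gene, fell to 11.6 ± 0.902 FPKM, against 41.9 ± 11.1 FPKM in controls. The hydroxylase gene Coq7, chosen after its value was seen, fell to 3.06 ± 0.342 FPKM, against 11.38 ± 1.26 FPKM in controls. Nqo1, a quinone reductase, was below the filter, at 0.407, 0.946 and 0.816 FPKM with sulfasalazine and 0.225, 0.121 and 0.236 FPKM in controls.

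Around Gch1 and Dhodh, the tetrahydrobiopterin and pyrimidine list had 7 of 14 tested higher and 3 lower. Steps after Gch1 went the other way from it. Spr, the reductase that completes tetrahydrobiopterin, rose to 64.1 ± 6.40 FPKM with sulfasalazine, against 27.6 ± 4.82 FPKM in controls. Qdpr, which recycles it, rose to 42.5, 38.4 and 42.1 FPKM, against 7.84, 10.4 and 14.3 FPKM in controls (log2 fold change 1.86, limma adjusted p = 9.9e-05), with 18.6% of its exonic bases in an opposite-strand entry. Pcbd2, of the same recycling route, rose to 44.1 ± 4.91 FPKM, against 18.8 ± 5.48 FPKM in controls. Pts and Pcbd1, chosen after their values were seen, were also higher (log2 fold changes 0.42 and 0.98, limma adjusted p = 0.0362 and 0.00078). In pyrimidine synthesis, Cad and Umps, which act before and after DHODH and were chosen after their values were seen, did not pass (log2 fold changes 0.21 and -0.34, limma adjusted p = 0.137 and 0.0959). The CTP synthase genes changed in opposite directions, Ctps2 rising to 32.0 ± 0.784 FPKM with sulfasalazine, against 7.83 ± 2.201 FPKM in controls. Ctps, chosen after its value was seen, fell to 29.99 ± 3.06 FPKM, against 66.4 ± 2.07 FPKM in controls.

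Of the phospholipid remodelling and peroxidation genes, 9 of 19 tested were higher and 5 lower. Acsl3, an acyl-CoA synthetase known for activating monounsaturated fatty acids, rose to 35.1, 26.9 and 41.2 FPKM with sulfasalazine, against 7.77, 7.02 and 4.87 FPKM in controls (log2 fold change 2.23, SE 0.21, limma adjusted p = 5.6e-05). Utp14b on the same strand covers 5.6% of its exonic bases. No treated library of Acsl3 overlapped a control library, in contrast to its paralogue Acsl4. Fads1, a desaturase on the path to arachidonic acid, rose to 189 ± 29.8 FPKM, against 46.4 ± 13.2 FPKM in controls, and Lpcat1, which places saturated chains in phosphatidylcholine, to 26.3 ± 4.64 FPKM, against 6.31 ± 3.75 FPKM. Cyb5r1, an electron donor enzyme known to promote lipid peroxidation, fell to 74.5, 79.8 and 117 FPKM with sulfasalazine, against 368, 470 and 420 FPKM in controls (log2 fold change -2.22, SE 0.18, limma adjusted p = 2.7e-05). Por, cytochrome P450 reductase with the same known role and chosen after its value was seen, fell to 512 ± 25.1 FPKM, against 1001 ± 123 FPKM in controls.

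Among ferroptosis regulators and markers, 7 of 20 tested were higher and 5 lower. The glutathione synthesis genes Gclm and Gclc rose by 3.38 and 2.65 on the log2 scale, and Dhcr7, which consumes the radical-trapping sterol 7-dehydrocholesterol, rose to 172 ± 22.7 FPKM, against 16.8 ± 5.12 FPKM in controls. Slc7a11, the light chain of the cystine transporter, had 8.65, 8.52 and 16.9 FPKM with sulfasalazine and 1.27, 3.97 and 0.476 FPKM in controls, and was called higher (log2 fold change 2.21, limma adjusted p = 0.0025). Slc3a2, the heavy chain of the same transporter, chosen after its value was seen, fell to 584 ± 149 FPKM with sulfasalazine, against 1449 ± 38.6 FPKM in controls (log2 fold change -1.34, limma adjusted p = 0.00032). Hmox1, haem oxygenase, rose to 622 ± 82.2 FPKM, against 199 ± 10.6 FPKM in controls. Transcripts often measured as ferroptosis markers did not share a direction with it. Ptgs2 fell to 70.1, 59.2 and 99.6 FPKM, against 489, 482 and 265 FPKM in controls, and Chac1, a glutathione-degrading enzyme gene, to 23.1, 20.1 and 64.7 FPKM, against 94.5, 124 and 105 FPKM. Tfrc, the transferrin receptor gene, had 13.1, 14.7 and 31.0 FPKM with sulfasalazine and 50.7, 48.4 and 16.4 FPKM in controls. Its groups overlapped through replicate 3 of each, and it did not pass (limma adjusted p = 0.122). Tfrc was called lower without control replicate 3 (adjusted p = 0.0049), without sulfasalazine replicate 3 (0.0499) and without both (9e-06, range over the alternatives 9e-06 to 0.329).

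**Figure D4:**
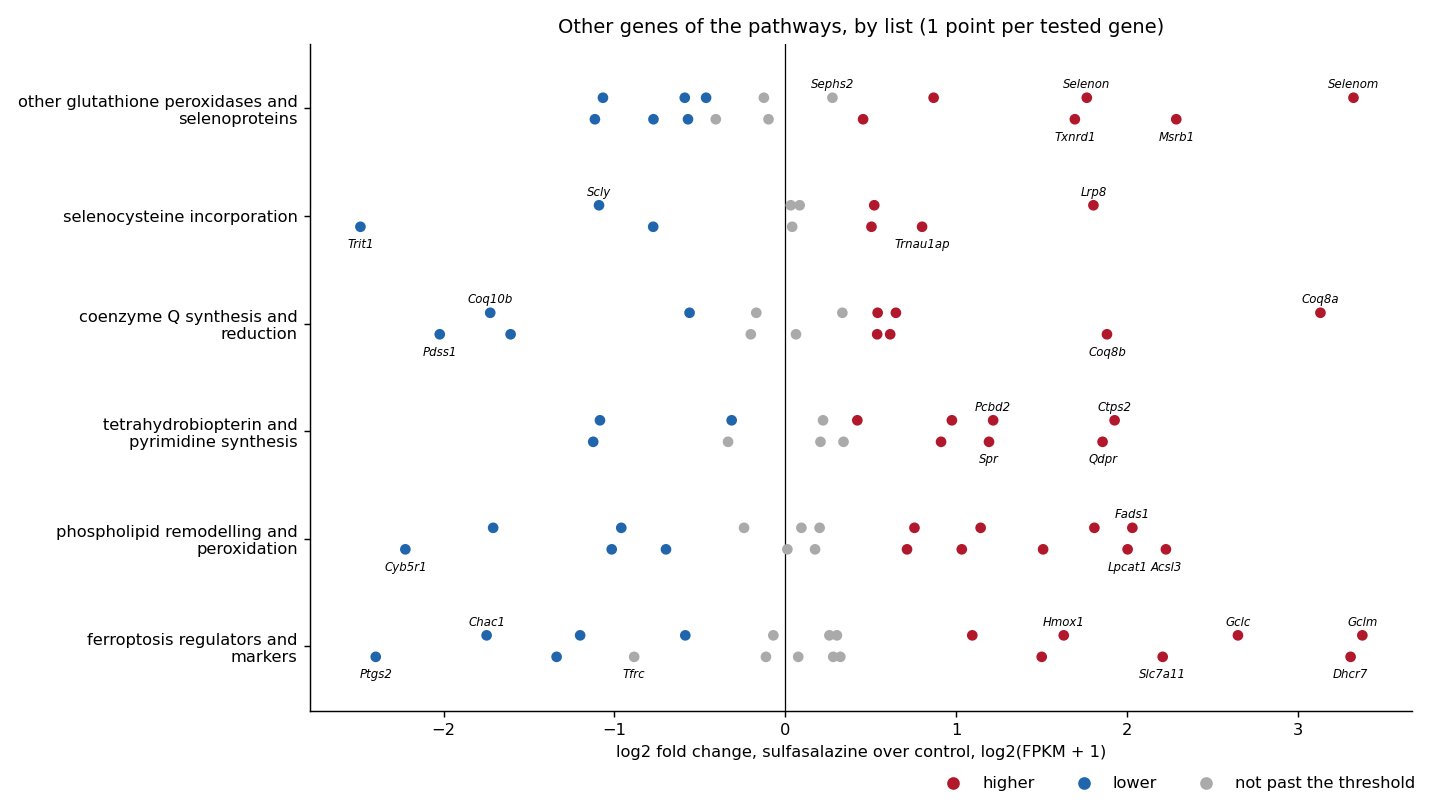
Log2 fold change (x axis, sulfasalazine over control, on the log2(FPKM + 1) scale) of the 93 tested genes of the 6 lists, 1 point per gene, coloured by call and labelled for genes named by the rule. Every list has points on both sides of 0, and the points run from Trit1 at -2.49 to Gclm at 3.38.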

How the data were processed

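RNA of 3 sulfasalazine-treated and 3 untreated MC3T3-E1 samples was compared, grouped by sample title. The submitters' processing notes list mm39, edgeR, HTSeq 0.13.5, HISAT2 2.2.1 and fastp 0.23.0 without roles. The authors deposited FPKM per gene and library, a library-adjusted signal, a log2 fold change and a p-value and adjusted p-value. Although the notes name mm39, 99.0% of the 13982 genes matched to GENCODE M21 had its GRCm38 start and end, so coordinates are GRCm38. Whole reads were recovered from steps in the FPKM, guided by the authors' signal, for 100.0% of genes within 0.00001 reads plus rounding error.

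Genes reaching 1 FPKM in 3 or more libraries were tested with limma 3.58.1 in R 4.3.3 on log2(FPKM + 1), which understates changes of low genes (intensity trend, two-sided, Benjamini-Hochberg over 10338 genes). The test was also run on simulated data with few changed genes, balanced in direction, and no outlying library. Those settings differ from these data, so that run does not show how the test behaves here. Ratios, ranks and motifs were computed in Python 3.11.15. Shared sequence was counted in GENCODE M21, and whether counting used strand is not stated here.

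Named genes were the 8 members, up to 4 called genes per list with the largest absolute change and a group mean of at least 5 FPKM, and 8 key genes (Slc7a11, Ptgs2, Chac1, Tfrc, Nqo1, Txnrd1, Sephs2, Hmox1). Members and lists were chosen with earlier results of these data known. Alternatives tried were median-of-ratios scaling, quantile normalization, a 0.1 pseudocount, 5 FPKM or no filter, no trend, a replicate block, each library left out and a threshold of 0.01. Added after the data were seen were replicate 3 of both groups left out and limma voom on recovered reads. Protein sequences were not used here.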

Additional observations from a re-analysis of the deposited data

How the results depend on the processing

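Aifm2, Lpcat3 and Gpx1 kept their calls under all 15 alternatives run on single genes. The number of members called higher was 5, 4 with no filter, 4 under median-of-ratios scaling and 4 with the replicate block. It was 3 to 5 with 1 library left out and 3 at a threshold of 0.01. The number called lower was 1, 2 under median-of-ratios scaling, 2 under quantile normalization, 2 without replicate 3 of both groups, 0 with the replicate block, 0 at a threshold of 0.01 and 0 to 2 with 1 library left out. For Gpx4 the log2 fold change was 0.51 with no filter, 0.38 under median-of-ratios scaling, 0.51 with the replicate block and 0.41 to 0.67 with 1 library left out. Acsl4 gave -0.72 under median-of-ratios scaling, -0.70 under quantile normalization, -1.002 without replicate 3 of both groups and -0.88 to -0.45 with 1 library left out. Dhodh gave 0.68 to 1.17 and Gch1 -0.36 to -0.28 with 1 library left out, and Gch1 -0.33 with the replicate block. Coq2 changed sign to 0.034 without replicate 3 of both groups. The causes of these shifts were not tested. Median-of-ratios scaling moved the median log2 fold change of all genes to -0.03, against 0.08 as deposited, and quantile normalization to -0.02.

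Same-numbered libraries did not deviate together (correlations of deviations 0.036, -0.194 and -0.174), and differently numbered ones gave -0.136 to 0.212. With 3 libraries a group, these values cannot decide whether the numbers pair the samples. The replicate block ended the calls of Gpx4 (limma adjusted p = 0.0986) and Gch1 (0.114) and changed no other member's call. Dhodh had the fewest reads of the members, 122 to 385 a library, and the part of depth in its call was not tested.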
